A study of Mus musculus with 2 samples.

Results

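Breakdown of the branched-chain amino acids leucine, isoleucine and valine is followed here through 10 genes of the mouse left ventricle, chosen by name along the route: the transaminase gene Bcat2, the dehydrogenase complex genes Bckdha, Bckdhb and Dbt, the kinase and phosphatase genes Bckdk and Ppm1k, and the downstream enzyme genes Ivd, Mccc1, Hibadh and Pcca. All 10 were found among the 31920 genes of the expression table. Polyadenylated RNA had been sequenced from the left ventricle of male 129-SvEv mice aged 10 weeks, with 1 library labelled Lamp2 knockout and 1 labelled wildtype. Neither group carried a treatment or a further allele in the labels, and the labels say neither how the Lamp2 allele was made nor how many mice went into a library. LAMP2 is a membrane protein of lysosomes, and by its title the series concerns heart muscle disease and impaired autophagy.

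In muscle and heart the first step is a mitochondrial transaminase, which turns the amino acids into branched-chain keto acids. The branched-chain keto acid dehydrogenase (BCKDH) complex then commits them to oxidation. A dedicated kinase switches the complex off by phosphorylating its E1α subunit, and a dedicated phosphatase switches it on again, and the balance of the pair is known to set how fast the keto acids are oxidised. Separate enzymes carry the products on to acetyl-CoA, acetoacetate and propionyl-CoA, and the heart is among the tissues that oxidise them.

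Because each group is a single library, the variation from mouse to mouse is unknown, no difference below has a replicate check, and the genotypes were not tested against each other. Gene-assigned reads numbered 8773820 in the library that carries the knockout label (the knockout-labelled library) and 8410593 in the wildtype library. Lamp2 itself had 986 reads in the knockout-labelled library and 990 in the wildtype library, at a ratio of 0.955 (0.873 to 1.04), and a count over the whole gene does not show whether part of it is missing, so the label is not checked by this count. Levels are given as reads per 1000000 assigned reads (RPM), ratios are of RPM with the knockout-labelled library on top, and intervals are exact 95% intervals that cover counting error only. Mitochondrially encoded transcripts made up 16.2% of reads in the knockout-labelled library and 26.5% in the wildtype library, and RPM values share a fixed total. The median log2 ratio of the 10209 measured genes, those with at least 5 RPM in the higher library, was 0.11, so a ratio of 1.08 stood at the middle of all genes. The ratios of the 10 genes are therefore also given as their range over 3 rescalings, which lower log2 ratios by 0.12, 0.12 and 0.18.

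Ppm1k, the phosphatase that switches the complex on, was the member with the largest difference and was lower in the knockout-labelled library. It had 92.1 RPM (808 reads) in the knockout-labelled library and 140 RPM (1181 reads) in the wildtype library. The ratio was 0.656 (0.599 to 0.718), or 0.577 to 0.605 after rescaling. In whole tissue fewer cells of a type and less RNA per cell cannot be told apart. Bckdk, the kinase that opposes it, was at 134 RPM (1176 reads) in the knockout-labelled library and 135 RPM (1134 reads) in the wildtype library (ratio 0.994, 0.915 to 1.08). Its interval held 1 on the deposited scale, whereas each of the 3 rescalings placed the kinase at 0.875 to 0.917 with an interval below 1. Ppm1k lies on the minus strand of chromosome 6 from 57506502 to 57535426 and Bckdk on the plus strand of chromosome 7 from 127904073 to 127909664, in the mm10 build. Their transcripts hold stretches of at most 212 bases (Ppm1k) and 173 bases (Bckdk) that closely match other genes' transcripts, and the sources used here do not give how such reads were counted.

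The balance of the pair in RNA reads can be taken within each library, where it does not depend on how the libraries are scaled. Protein, enzyme activity and the phosphate on E1α were not measured, so these reads do not give the state of the complex. The knockout-labelled library held 1.46 Bckdk reads for each Ppm1k read, and the wildtype library held 0.960. The kinase-to-phosphatase read ratio was thus 1.52 times as high in the knockout-labelled library (1.34 to 1.71, conditional odds ratio). In 2 further pairs, chosen after the values were seen, the read ratio to Ppm1k was also higher in the knockout-labelled library. The factor was 1.74 (1.54 to 1.95) for Bcat2 and 1.74 (1.57 to 1.92) for Bckdha. Ppm1k had the lowest ratio of the 10 genes, so any other member set against it must give a factor above 1. These pairs therefore restate the ratio of Ppm1k and are not separate support. Bckdk itself stood at a ratio of 0.994, below the median gene at 1.08. By read count Ppm1k and Bckdk differ in transcript length, so the value of 1.46 in one library is not a ratio of molecules, whereas its change between libraries is free of length.

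The windows of 250 bases before the RefSeq start are shown for Ppm1k and Bckdk, whose read balance differed, and for Bckdhb and Hibadh, the members with the highest ratios. They are from build GRCm38.p6, read 5′ to 3′ on the gene's strand, at chr6:57535488-57535737 on the minus strand for Ppm1k, chr7:127903823-127904072 on the plus strand for Bckdk, chr9:83924887-83925136 on the plus strand for Bckdhb and chr6:52640301-52640550 on the minus strand for Hibadh. Capitals mark the CCAAT box (CCAAT), the GC box (GGGCGG) and the TATA box (TATAAA) on either strand (the TATA box of Bckdk is on the other strand); none of these matches overlaps another. The RefSeq start used for Ppm1k lies 61 bases from the deposited gene start, and that for Bckdhb 15 bases from it.
Ppm1k: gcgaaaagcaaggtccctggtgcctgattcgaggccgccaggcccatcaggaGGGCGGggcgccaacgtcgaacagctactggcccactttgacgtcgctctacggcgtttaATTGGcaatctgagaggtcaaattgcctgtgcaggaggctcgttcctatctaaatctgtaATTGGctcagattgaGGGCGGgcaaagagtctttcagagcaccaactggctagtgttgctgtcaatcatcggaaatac
Bckdk: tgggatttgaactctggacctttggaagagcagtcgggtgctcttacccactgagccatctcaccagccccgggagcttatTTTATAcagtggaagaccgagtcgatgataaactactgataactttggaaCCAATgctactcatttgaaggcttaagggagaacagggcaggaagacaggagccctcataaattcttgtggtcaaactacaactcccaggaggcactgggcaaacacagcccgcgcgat
Bckdhb: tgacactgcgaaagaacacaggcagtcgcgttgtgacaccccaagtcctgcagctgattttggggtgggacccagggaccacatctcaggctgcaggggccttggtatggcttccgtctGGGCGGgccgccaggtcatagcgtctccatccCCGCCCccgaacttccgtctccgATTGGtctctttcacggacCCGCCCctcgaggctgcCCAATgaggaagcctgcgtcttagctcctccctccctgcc
Hibadh: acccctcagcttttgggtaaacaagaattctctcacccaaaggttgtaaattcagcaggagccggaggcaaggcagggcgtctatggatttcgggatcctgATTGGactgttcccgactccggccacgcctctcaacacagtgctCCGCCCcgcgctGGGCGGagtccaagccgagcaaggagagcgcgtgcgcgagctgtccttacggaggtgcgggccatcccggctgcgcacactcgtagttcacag

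The table of promoters held 9 of the 10 genes; Dbt had no entry. The Ppm1k window held 2 CCAAT boxes and 2 GC boxes, whereas the Bckdk window held 1 CCAAT box, 1 TATA box and no GC box. A CCAAT box, the letters bound by the factor NF-Y, was found in 7 of the 9 windows and in 33.8% of 32851 RefSeq windows of the same length. A GC box, bound by Sp and Krüppel-like factors, was found in 5 of 9 against 32.7% of all windows. The TATA box was in the Bckdk window alone (1 of 9, against 12.4% of all windows). The letters AAGGTCA, the core of the element of oestrogen-related receptors, and the E-box CACGTG were in 0 of 9 windows, against 4.08% and 6.02% of all windows. Such matches describe letters and are not sites of binding. Bckdhb and Ppm1k, which stood at opposite ends of the members' ratios, both held CCAAT and GC boxes. A link between the boxes and the ratios was not tested.

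**Figure D1:**
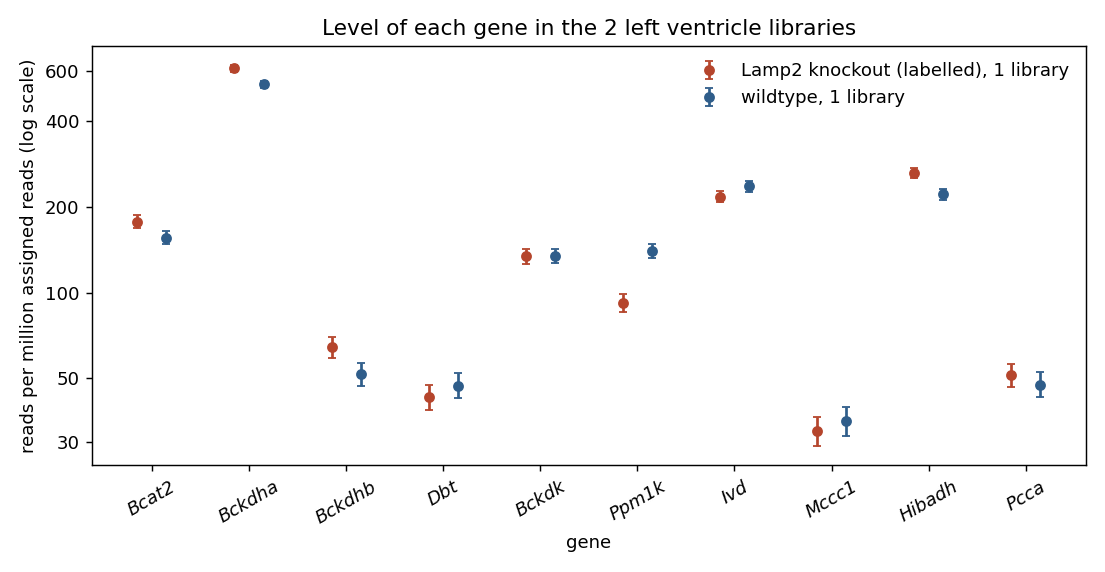
Level of each of the 10 genes in RPM on a log axis, with the knockout-labelled library to the left of the wildtype library and exact Poisson 95% intervals of counting error. RPM is not corrected for length, so heights compare the libraries within a gene and not the genes. The intervals of Ppm1k do not overlap at 92.1 RPM (knockout-labelled) and 140 RPM (wildtype).

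Bcat2, which encodes the mitochondrial transaminase of the first step, was slightly higher in the knockout-labelled library. Its level was 178 RPM (1559 reads) in the knockout-labelled library and 156 RPM (1312 reads) in the wildtype library. The ratio was 1.14 (1.06 to 1.23), close to the middle of all measured genes: 57.2% of them had a lower log2 ratio, and rescaling brought it to 1.003 to 1.05 with intervals that held 1. The gene runs on the plus strand of chromosome 7 from 45570153 to 45589710. The cytosolic transaminase gene Bcat1, better known from brain and tumours, had only 4 reads in the knockout-labelled library and 12 in the wildtype library and was not counted as measured.

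The genes of the BCKDH complex had ratios on both sides of 1. Bckdha, which encodes the E1α subunit that carries the regulatory phosphate, was at 614 RPM in the knockout-labelled library and 539 RPM in the wildtype library (chromosome 7, minus strand, 25629852 to 25658761). Its ratio was 1.14 (1.09 to 1.19), or 1.003 to 1.05 after rescaling. Bckdhb, the E1β partner, was at 64.4 RPM in the knockout-labelled library and 51.7 RPM in the wildtype library, with the highest ratio of the 10 genes at 1.25 (1.10 to 1.41; rescaled 1.10 to 1.15; chromosome 9, plus strand, 83925152 to 84124240). Both E1 genes stood above the median of all genes on the deposited scale. Dbt, which encodes the E2 core to which the E1 subunits bind, stood on the other side at 42.9 RPM in the knockout-labelled library and 47.2 RPM in the wildtype library. Its ratio was 0.908 (0.786 to 1.05), and its interval held 1, while the rescaled values were 0.799 to 0.837, with intervals below 1 under all 3 rescalings (chromosome 3, plus strand, 116513079 to 116549981).

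Within a library the E1 genes can be set against each other and against E2. There were 9.53 Bckdha reads for each Bckdhb read in the knockout-labelled library and 10.4 in the wildtype library. That ratio differed by a factor of 0.915 (0.801 to 1.05), an interval that held 1. Against Dbt, in pairs computed after the values were seen, Bckdhb stood 1.37 times as high in the knockout-labelled library as in the wildtype (1.13 to 1.66) and Bckdha 1.25 times (1.08 to 1.46). Among the members only Ppm1k had a lower ratio than Dbt, so any other member set against Dbt must give a factor above 1. The pairs with Dbt therefore restate the ratios of the single genes and are not separate support. Dld, the E3 subunit that the complex shares with other keto acid dehydrogenases, was below 1 like Dbt, at a ratio of 0.897 (0.838 to 0.960). In the part of Bckdha that overlaps B3gnt8, a glycosyltransferase gene on the opposite strand, reads of the genes cannot be told apart, because the use of strand in counting is not given. Exons annotated to B3gnt8 cover 61.7% of the exon bases of Bckdha, and the B3gnt8 row held 1373 reads in the knockout-labelled library and 1405 in the wildtype library (ratio 0.937, 0.869 to 1.01).

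**Figure D2:**
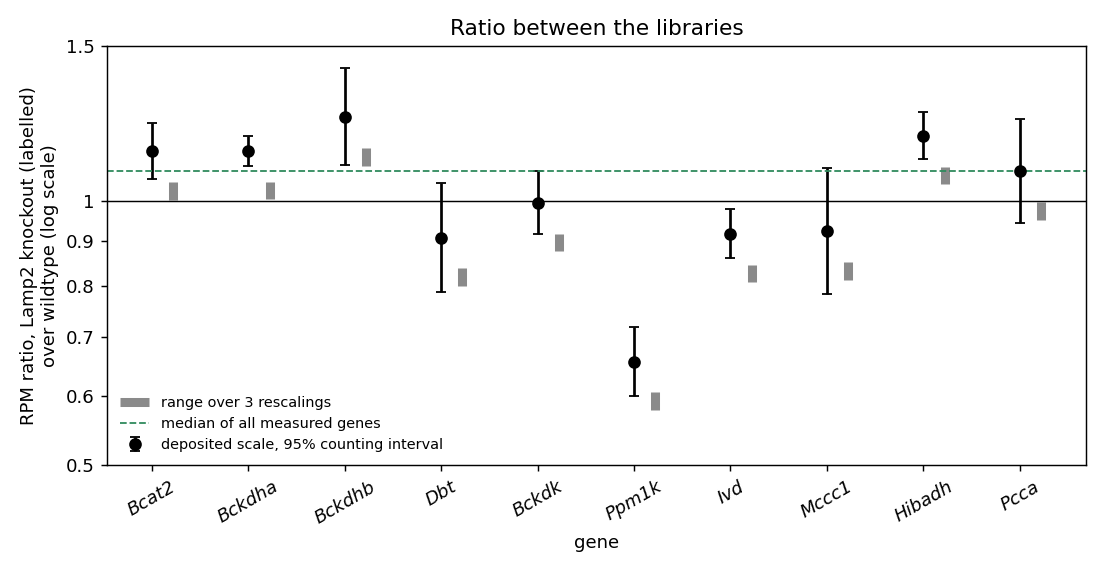
RPM ratio of the knockout-labelled library over the wildtype for each gene on a log axis, with 95% counting intervals (points) and the range over 3 rescalings (grey bars). Ppm1k stands alone at 0.656, while the other 9 genes lie between 0.908 and 1.25 around the dashed median of all measured genes at 1.08.

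In the leucine branch both members were slightly lower in the knockout-labelled library on the deposited scale. Ivd encodes isovaleryl-CoA dehydrogenase, the first enzyme after the complex in this branch, and was at 217 RPM in the knockout-labelled library and 237 RPM in the wildtype library. The ratio was 0.917 (0.861 to 0.977), or 0.808 to 0.846 after rescaling (chromosome 2, plus strand, 118862000 to 118881357). Mccc1, the biotin-carrying subunit of 3-methylcrotonyl-CoA carboxylase, had 32.6 RPM in the knockout-labelled library and 35.3 RPM in the wildtype library. Its ratio of 0.923 (0.782 to 1.09) rested on 286 reads in the knockout-labelled library and 297 in the wildtype library, and its interval held 1, while the rescaled values were 0.813 to 0.851 (chromosome 3, minus strand, 35959306 to 36000678). Mccc2, which encodes the partner subunit, had a similar ratio of 0.914 (0.805 to 1.04). The Mccc1-to-Mccc2 read ratio was 0.602 in the knockout-labelled library and 0.596 in the wildtype library, a factor of 1.01 (0.818 to 1.25).

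In the valine branch Hibadh, the dehydrogenase of 3-hydroxyisobutyrate, was higher at 263 RPM in the knockout-labelled library and 222 RPM in the wildtype library. The ratio was 1.19 (1.12 to 1.26), or 1.04 to 1.09 after rescaling (chromosome 6, minus strand, 52546230 to 52640300). Pcca, the biotin-carrying subunit of propionyl-CoA carboxylase, which takes in the propionyl-CoA that valine and isoleucine both yield, was at 51.4 RPM in the knockout-labelled library and 47.6 RPM in the wildtype library. Its ratio of 1.08 (0.943 to 1.24) was that of the median gene, and it lay below 1 under each of the 3 rescalings, at 0.952 to 0.997 (chromosome 14, plus strand, 122534328 to 122889944). Pccb, its partner, was at 1.05 (0.986 to 1.12), and the Pcca-to-Pccb read ratio was 0.228 in the knockout-labelled library and 0.222 in the wildtype library, a factor of 1.03 (0.884 to 1.20). For both biotin carboxylases the interval of the subunits' read balance held 1. Exons of a gene on the opposite strand overlap 4.63% of the exon bases of Pcca, and the row of A2ld1, the opposite-strand gene there, had a ratio of 1.32 (1.16 to 1.51).

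Read against all genes, few of the members stood apart. None of the 10 was at least 2-fold higher or lower, the rule of size being a log2 ratio of 1 with 1 RPM added to each level, and 3.35% and 2.37% of all measured genes passed it upward and downward. Of the genes that passed, 58.6% were higher on the deposited scale, and 44.8%, 44.5% and 38.3% after the rescalings. At 1.5-fold, 0 members were higher and 1, Ppm1k, was lower, against 12.8% and 7.3% of measured genes. The counting interval lay above 1 for 4 members (Bcat2, Bckdha, Bckdhb and Hibadh) and below 1 for 2 (Ppm1k and Ivd), against 35% and 16.8% of measured genes. These shares lie near the background. After the rescalings the interval lay above 1 for 3, 3 and 0 members and below 1 for 4, 4 and 5, against 25.9%, 25.7% and 21.3% of measured genes above and 24.1%, 24.3% and 29.2% below, so that under the third no member's interval stood above 1. Bckdha, Bckdhb and Hibadh had intervals above 1 under the first and second rescalings and intervals that held 1 under the third, and the interval of Mccc1 lay below 1 under the third alone. The median log2 ratio of the members was 0.05, beside 0.11 for all measured genes and quartiles of −0.16 and 0.39. For Ppm1k, 6.88% of measured genes had a lower log2 ratio, and for Bckdhb, at the other end, 68.9% did.

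**Figure D3:**
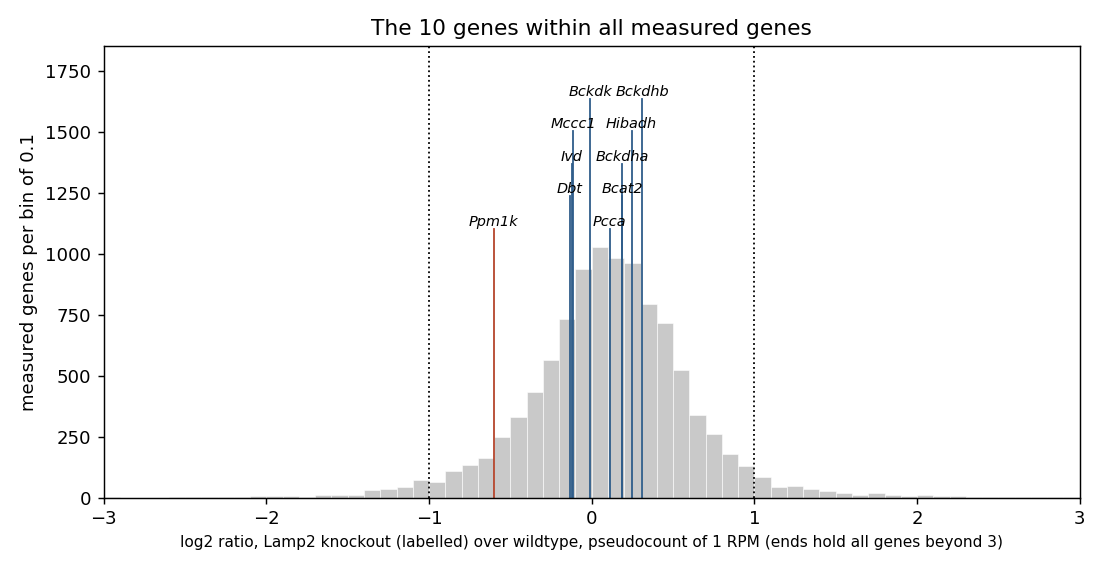
Distribution of log2 ratios (knockout-labelled over wildtype, 1 RPM added) over the 10209 measured genes in bins of 0.1, with a line for each of the 10 genes and dotted lines at 2-fold. Ppm1k at −0.60 lies in the lower tail and the other 9 genes lie between −0.14 and 0.31, within the bulk of the distribution.

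The share of each gene in the members' summed reads does not depend on library scaling. Bckdha supplied 36.3% of the members' summed reads in the knockout-labelled library and 33.5% in the wildtype library. Ppm1k supplied 5.45% in the knockout-labelled library and 8.72% in the wildtype library, the largest change of share relative to its size. Summed over all 10 genes, the level was 1689 RPM in the knockout-labelled library and 1610 RPM in the wildtype library, a ratio of 1.05 (1.02 to 1.07).

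Levels of different genes were compared per kilobase, first by merged exon length in the GENCODE M21 annotation. Bckdha was the highest in both libraries, at 323 RPM per kilobase in the knockout-labelled library and 284 in the wildtype library. Bcat2 was second in the knockout-labelled library at 45.6 RPM per kilobase and stood behind Ivd in the wildtype library at 40.0, where Ivd was at 43.0; Ivd was at 39.4 in the knockout-labelled library. Ppm1k was at 15.3 RPM per kilobase in the knockout-labelled library, below Hibadh at 25.8, and at 23.3 in the wildtype library, where its interval overlapped that of Hibadh at 21.8. Neighbours whose intervals overlapped were Ivd with Bckdk and Bckdk with Bckdhb in the knockout-labelled library, and Ivd with Bcat2, Bcat2 with Bckdk, and Ppm1k with Hibadh in the wildtype library. The order depended on the length: with the longest protein-coding transcript, chosen after the data were seen, Hibadh was the second at 144 RPM per kilobase in the knockout-labelled library and 122 in the wildtype library, since its merged length is 10179 bases and that transcript 1825. Mccc1 was the lowest by merged length, while by coding transcript Dbt was at 12.98 RPM per kilobase in the knockout-labelled library and 14.3 in the wildtype library, with intervals that overlapped those of Mccc1.

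A list of 24 further enzymes and helpers of the route also had ratios on both sides of 1. Of its 21 measured genes, 0 were at least 2-fold higher or lower, 10 had a ratio above 1 and 11 below, and the median log2 ratio was −0.03. The interval lay above 1 for 5 and below 1 for 4 of them, beside 35% and 16.8% of all measured genes. After the rescalings it lay above 1 for 3, 3 and 2, beside 25.9%, 25.7% and 21.3% of all measured genes. It lay below 1 for 6, 7 and 9, beside 24.1%, 24.3% and 29.2%. The lowest ratio was that of Acat1, the mitochondrial thiolase that ends the isoleucine branch and also handles ketone bodies, at 248 RPM in the knockout-labelled library and 349 RPM in the wildtype library (ratio 0.711, 0.672 to 0.752). Mut, the cobalamin-dependent mutase that makes succinyl-CoA from the propionyl-CoA route, followed at 73.7 RPM in the knockout-labelled library and 97.0 RPM in the wildtype library (ratio 0.760, 0.684 to 0.844). For Acat1 9.76% and for Mut 12.9% of measured genes had a lower log2 ratio.

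Other enzymes of the list were higher in the knockout-labelled library. Echs1 and Hsd17b10, a hydratase and a dehydrogenase that act after the acyl-CoA dehydrogenases, had ratios of 1.23 (1.17 to 1.29) and 1.19 (1.11 to 1.26). Abat, which encodes the transaminase of GABA and of the valine product β-aminoisobutyrate, had the highest ratio at 1.92 (1.38 to 2.68), but rested on 114 reads in the knockout-labelled library and 57 in the wildtype library. Aldh6a1, the last enzyme of the valine branch proper, stood at 0.966 (0.903 to 1.03), and Acadsb and Acad8, the acyl-CoA dehydrogenases of isoleucine and valine, at 1.04 (0.957 to 1.13) and 0.976 (0.835 to 1.14). Agxt2 and Hmgcll1 had 0 reads in both libraries. As an approximate upper bound for a count of 0, 3 reads would be 0.342 RPM in the knockout-labelled library and 0.357 RPM in the wildtype library. Over the members and this list together, 29 of 31 measured genes lay within 1.5-fold, beside 79.9% of all measured genes, and Ppm1k and Abat lay outside.

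**Figure D4:**
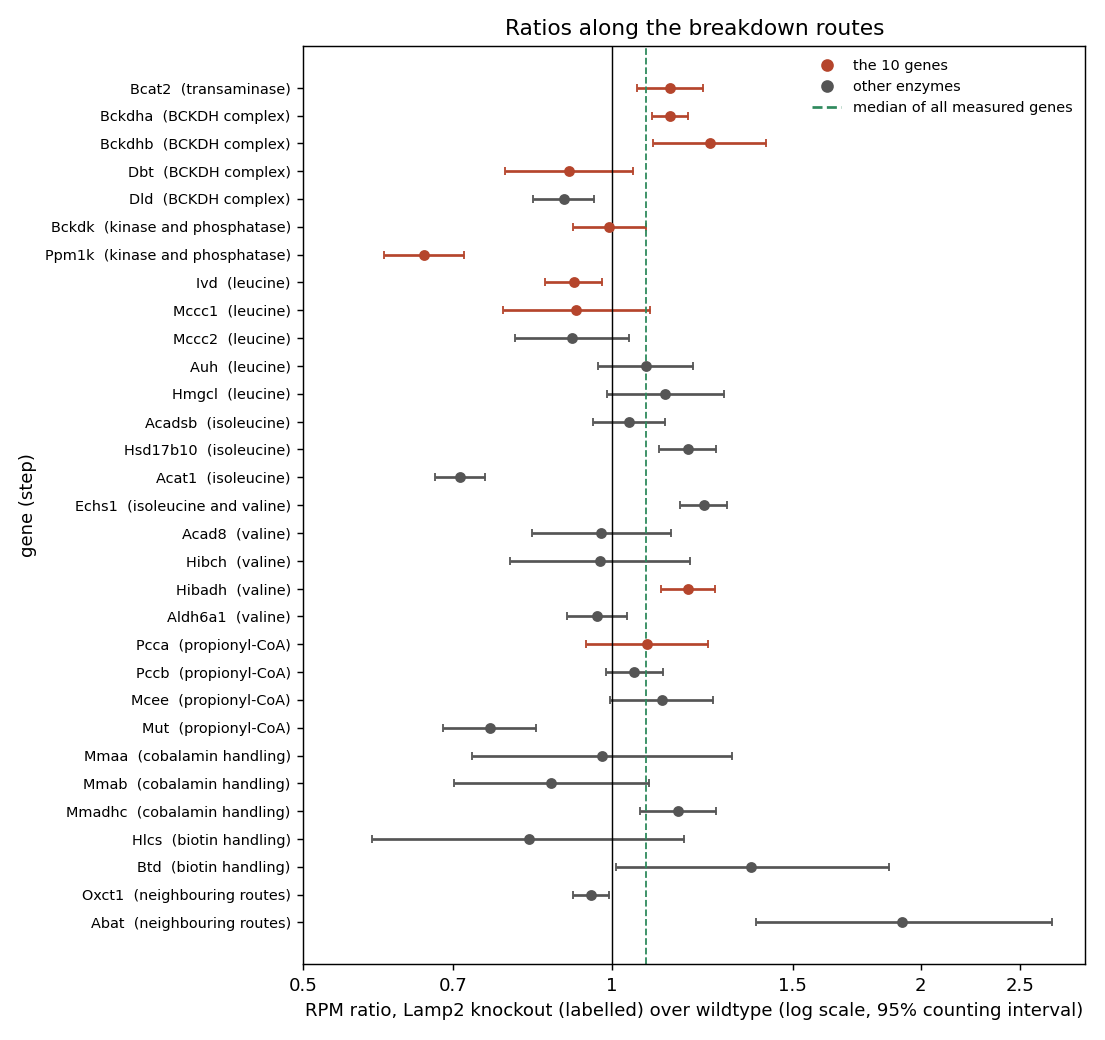
RPM ratio of the knockout-labelled library over the wildtype on a log axis with 95% counting intervals for the 31 measured genes, ordered by step of the route, with the 10 genes in red and the other enzymes in grey. Ppm1k (0.656), Acat1 (0.711) and Mut (0.760) have the lowest ratios and Abat (1.92) the highest, and no branch lies wholly on one side of 1 apart from steps shown by a single gene and the pair of Bckdk and Ppm1k.

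The BCKDH complex has sister complexes for pyruvate (PDH) and 2-oxoglutarate, of which PDH is switched by kinases and phosphatases of its own. The phosphatase genes of PDH, Pdp1 and Pdp2, were both lower in the knockout-labelled library, like Ppm1k. Pdp1 was at 27.8 RPM in the knockout-labelled library and 37.8 RPM in the wildtype library (ratio 0.736, 0.620 to 0.872), and Pdp2 at 16.2 RPM in the knockout-labelled library and 32.2 RPM in the wildtype library (ratio 0.502, 0.407 to 0.618). The Ppm1k-to-Pdp1 read ratio differed between the libraries by a factor of 0.892 (0.735 to 1.08), an interval that held 1, and the Ppm1k-to-Pdp2 ratio by 1.31 (1.04 to 1.64), both pairs chosen after the values were seen. On the deposited scale Pdk4, a kinase of PDH, was the 1 gene of 11 measured in this list past 2-fold. Of all measured genes 3.35% passed upward and 2.37% downward. Pdk4 stood at 580 RPM in the knockout-labelled library and 2560 RPM in the wildtype library, a ratio of 0.227 (0.220 to 0.234). Pdp2 was just under the rule on that scale, and its ratio was 0.442 to 0.463 after rescaling. The kinase gene Pdk1 was also lower, at 0.918 (0.853 to 0.988). On the deposited scale, intervals lay below 1 for 2 of the 4 measured kinase genes of both complexes and for all 3 phosphatase genes. The share of all measured genes was 16.8%. Under each of the 3 rescalings the intervals of Bckdk and Pdk2 lay below 1 as well, and so did those of the other kinase and phosphatase genes. The shares of all measured genes were then 24.1%, 24.3% and 29.2%. The Bckdk-to-Pdk4 read ratio was 0.231 in the knockout-labelled library and 0.0527 in the wildtype library, a factor of 4.39 (4.02 to 4.79), while Bckdk against Pdk2, a pair chosen after the values were seen, differed by a factor of 0.997 (0.910 to 1.09).

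**Figure D5:**
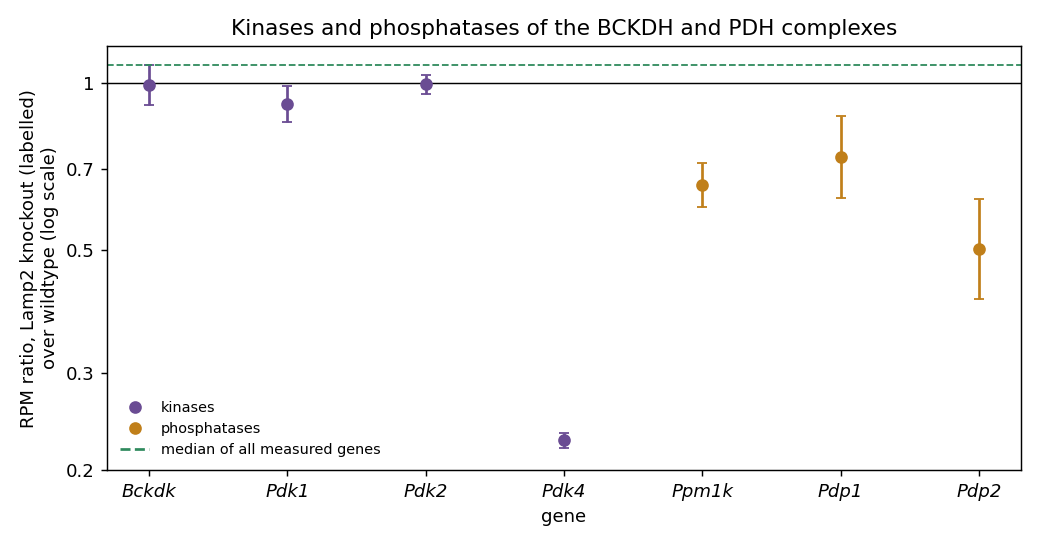
RPM ratio of the knockout-labelled library over the wildtype on a log axis with 95% counting intervals for kinases (left) and phosphatases (right) of the BCKDH and PDH complexes. The 3 phosphatase genes lie at 0.656, 0.736 and 0.502, all with intervals below 1. Of the 4 kinase genes, Bckdk and Pdk2 lie at 0.994 and 0.997 with intervals that hold 1, and Pdk1 (0.918) and Pdk4 (0.227) have intervals below 1. All points are on the deposited scale. Under each of the 3 rescalings, which are not drawn, the intervals of Bckdk and Pdk2 lie below 1 as well.

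Among genes of regulators linked to this route, opposite differences were seen. Klf15, a Krüppel-like factor known in mice to raise branched-chain amino acid breakdown genes in muscle and heart, was at 97.1 RPM in the knockout-labelled library and 35.0 RPM in the wildtype library. Its ratio was 2.78 (2.43 to 3.18), past the 2-fold rule, and 2.45 to 2.56 after rescaling. Ppargc1a, a coactivator of genes of mitochondrial metabolism, was at 30.2 RPM in the knockout-labelled library and 76.5 RPM in the wildtype library, at a ratio of 0.395 (0.341 to 0.457), also past the rule. The rule was thus passed by 1 of 6 upward and 1 of 6 downward, beside 3.35% and 2.37% of all measured genes. The other 4 of 6 genes were within 1.5-fold, beside 79.9% of all measured genes. Ppara was at 1.14 (0.985 to 1.33), Esrra at 1.02 (0.935 to 1.11), Mlxipl at 1.01 (0.803 to 1.27) and Srebf1 at 1.39 (1.14 to 1.70).

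Cell type markers were read from the same libraries. Cardiomyocyte genes, the check of the tissue label, were measured in 10 of 10 cases and summed to 64919 RPM in the knockout-labelled library and 67824 RPM in the wildtype library. On the deposited scale their intervals lay below 1 for 7 of 10 and above 1 for 2. The shares of all measured genes were 16.8% and 35%. Cardiomyocyte ratios ran from 0.595 (Pln) to 1.42 (Ryr2). Macrophage markers (7 of 8 measured, Adgre1 was not matched) summed to 299.5 RPM in the knockout-labelled library and 154.6 RPM in the wildtype library. On the deposited scale 2 of 7, C1qa and C1qb, were at least 2-fold higher, beside 3.35% of all measured genes. The ratio of C1qa was 2.18, or 1.92 to 2.01 after rescaling. Fibroblast markers (8 of 8 measured) summed to 510 RPM in the knockout-labelled library and 587 RPM in the wildtype library. Most of the sum was Dcn, at 393 RPM in the knockout-labelled library and 379 RPM in the wildtype library (ratio 1.04). The ratio was below 1 for 7 of 8. At least 2-fold lower were 3 of 8, beside 2.37% of all measured genes: Col1a1 (0.228), Col3a1 (0.175) and Lum (0.192). Smooth muscle and pericyte markers (6 of 6) summed to 719 RPM in the knockout-labelled library and 801 RPM in the wildtype library. Most of that sum was Rgs5, at 567 RPM in the knockout-labelled library and 608 RPM in the wildtype library. The interval of the ratio lay below 1 for 5 of 6, beside 16.8% of all measured genes. Endothelial markers (7 of 7) summed to 602 RPM in the knockout-labelled library and 584 RPM in the wildtype library. Their intervals lay above 1 for 2 and below 1 for 2 on the deposited scale, beside 35% and 16.8% of all measured genes. Endothelial ratios ran from 0.626 (Tek) to 1.42 (Tie1). Adipocyte markers (0 of 6 measured) summed to 1.14 RPM in the knockout-labelled library and 5.11 RPM in the wildtype library, with Retn, Lep and Ucp1 at 0 reads in both. Hepatocyte markers (0 of 4 measured) summed to 1.37 RPM in the knockout-labelled library and 1.31 RPM in the wildtype library, with Alb at 0 reads in both. The part of these differences in the ratios of Ppm1k, Bckdhb and the other members was not tested.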

How the data were processed

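Polyadenylated RNA of 1 library labelled Lamp2 knockout and 1 labelled wildtype was read from 1 deposited table. Per the file headers, the authors deposited read counts per gene, and RPM values that equal each count per 1000000 assigned reads (largest difference 5.0e-05). The submitters' processing notes name STAR, mm10 and GRCm38. Counter, annotation, strand use and the handling of multiply matching reads: not given in the sources used here. Both the authors' fold (ratio) and the authors' p-value were deposited without a stated method and were left out.

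Groups came from the genotype labels. A gene was measured at 5 RPM or more in the higher library and called when log2((knockout-labelled RPM + 1)/(wildtype RPM + 1)) reached 1 in size. Ratios carry exact conditional binomial (Clopper-Pearson) 95% intervals, levels exact Poisson intervals, and read ratios within a library conditional odds ratios. No molecular identifiers are mentioned in the labels, so reads may not be independent molecules and intervals cover counting error only. Of the 3 rescalings, the first sets the median ratio of measured genes to 1. The second uses a trimmed mean of log ratios (30% of ratios and 5% of levels trimmed on either side). The third recomputes library totals after mitochondrial transcripts and the 10 most abundant genes are removed. The members and lists were chosen with earlier results of these data known. The members and the genes of the lists are those that may be named; genes that overlap a member, and Lamp2, are named besides. Starts count from 1. Exon lengths are from GENCODE M21 (GRCm38) and promoters from RefSeq. The calling and the intervals were tested on simulated data that held counting error only. That test does not cover variation between mice, duplicate reads or the difference in mitochondrial share. Python 3.11.15, numpy 2.4.6, pandas 2.3.3, scipy 1.17.1, matplotlib 3.10.9 and BLAST 2.17.0 were used.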

Additional observations from a re-analysis of the deposited data

How the results depend on the processing

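No member was at least 2-fold higher or lower with pseudocounts of 0.1 or 5 RPM or under the 3 rescalings. None was called with no minimum, a minimum of 20 RPM or a 3-fold rule, but these settings could give no other count. Every member was above 20 RPM in both libraries, and none had passed 2-fold. With a 1.5-fold rule 1 member, Ppm1k, was lower and 1 gene of the list of further enzymes was apart. The members' median log2 ratio was −0.06 and −0.07 under the first pair of rescalings and −0.13 under the third, against 0.05. Of 70 recomputed log2 ratios of single members, 14 moved by more than their counting error, all under a rescaling. The 70 include the changes of minimum, which do not enter a member's ratio and so could move none. The count of 14 is therefore to be read against the rescalings and not against all 70. Only Pcca changed sign.

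By length of the longest transcript, 4 of 10 members in the knockout-labelled library and 3 in the wildtype library kept their place in the order of levels; by the longest protein-coding transcript, added after the data were seen, 2 and 2 did. The 5 planned read ratios stayed within their intervals when 1 read was added to each count. The lowest count in them was 286 reads (Mccc1, knockout-labelled library), so no other outcome was possible and this is no check.

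The 2-fold rule took in 342 higher and 242 lower genes of all measured (58.6% higher). The counts were 250 and 308 (44.8%), 249 and 310 (44.5%), and 222 and 357 (38.3%) under the 3 rescalings, 194 and 75 with a pseudocount of 5 RPM, 457 and 397 with no minimum, 220 and 92 with a minimum of 20 RPM, 1307 and 745 at 1.5-fold and 87 and 46 at 3-fold. No paired analysis was possible because each group held 1 library, and for the same reason no library could be left out. Genes with few reads, such as Mccc1 and Dbt, are known least closely at this depth.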

Other observations

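Of 6 measured carriers of branched-chain amino acids, 4 were higher in the knockout-labelled library with intervals above 1, each by less than 2-fold, beside 35% of all measured genes with intervals above 1 (25.9%, 25.7% and 21.3% after the rescalings). Slc7a5, the light chain of a leucine carrier, was at 11.1 RPM in the knockout-labelled library and 6.90 RPM in the wildtype library (ratio 1.60, 1.15 to 2.26). Slc3a2, its heavy-chain partner, was at 70.9 RPM in the knockout-labelled library and 48.2 RPM in the wildtype library (ratio 1.47, 1.30 to 1.67). The related light chains Slc7a6 and Slc7a8 had ratios of 1.94 (1.38 to 2.75) and 1.78 (1.25 to 2.57), resting on 105 and 93 reads in the knockout-labelled library and 52 and 50 in the wildtype library. Slc43a2, a carrier of another family, stood the other way at 27.1 RPM in the knockout-labelled library and 44.0 RPM in the wildtype library (ratio 0.617, 0.522 to 0.728). Slc25a44, the mitochondrial carrier of these amino acids, was near the median gene at 1.09 (0.877 to 1.35).

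Sesn1, a relative of the leucine sensor sestrin 2, was at 183 RPM in the knockout-labelled library and 94.4 RPM in the wildtype library (ratio 1.94, 1.78 to 2.11), a log2 ratio of 0.95 and so just under the 2-fold rule. Of the 8 measured genes of this list of 11, 0 passed 2-fold, beside 3.35% of all measured genes upward and 2.37% downward. At 1.5-fold 4 passed upward and 1 downward, beside 12.8% and 7.3% of all measured genes. The median log2 ratio was 0.58, or 0.41 to 0.47 under the rescalings, beside 0.11 for all measured genes on the deposited scale.

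The transcripts of Ppm1k and Bckdk hold stretches of at most 212 and 173 bases that match transcripts of 80 and 36 other genes at 95% identity or more. How the authors treated reads that match several places is not given in the sources used here, and the share of such reads in either gene was not tested. No member had a stretch of 300 bases in common with another gene's transcript apart from Bckdha, whose 490 bases are those shared with B3gnt8 on the opposite strand.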
